A study of Mus musculus with 8 samples.

Results

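The genes described here are 10 members of the switch by which Notch signalling steers intestinal progenitor cells toward absorptive or secretory fates: the receptors Notch1, Notch2 and Notch3, the ligands Dll1, Dll4, Jag1 and Jag2, the Notch target Hes1, and the secretory transcription factors Atoh1 and Gfi1. A probe belonged to a member when its accession carried that symbol in RefSeq. This gave 13 probes of the 41174 distinct probes on the array, and the brightest probe of each gene was used first. All 10 members were among the 19271 genes tested.

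RNA came from small intestinal organoids, epithelial cultures grown in Matrigel, from 2 wild-type mouse lines that had been derived independently. Each line was cultured for 6 days in 4 ways: without compound (control), with 3 µM CHIR99021, an inhibitor of the kinase GSK3 that switches on Wnt signalling, with 1 mM VPA (valproic acid, an inhibitor of histone deacetylases), or with both compounds at these doses, called the combination here. No group carried a transgene or a targeted allele per the labels. Mouse strain and age were not given in the sources used here, and the base medium was given only as a published organoid protocol. Each of the 8 two-colour arrays carried the sample's RNA in Cy5 and control RNA of the same line in Cy3, so the control arrays held control RNA in both dyes. Every group therefore had 2 arrays, 1 per line. Values are log2 ratios of Cy5 to Cy3, and a difference is a group's mean log2 ratio minus that of another group.

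Notch receptors on one cell are activated by Delta-like or Jagged ligands on a neighbour, which leads to cleavage of the receptor and entry of its intracellular domain into the nucleus, where it binds the DNA-binding protein RBPJ. In the intestinal crypt, active Notch switches on Hes1, a repressor of Atoh1, and keeps progenitors out of the secretory lineages. Cells that escape Notch express Atoh1, which drives goblet, Paneth, enteroendocrine and tuft-related secretory programmes through factors such as Gfi1 and Spdef, and these cells present Dll1 and Dll4 to their neighbours.

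The 3 members with the largest changes past the threshold with the combination were Notch3, Gfi1 and Dll1, and the 250 bases before their annotated starts are shown so that the regulatory letters stand beside the values. The promoters are from RefSeq (GRCm38.p6), and where 2 starts were listed the one further upstream is printed. Capitals mark matches on either strand to 1 of 3 motifs: TGGGAA, the core of RBPJ sites, CAGCTG, an E-box of the kind that ATOH1 and related factors bind, and CACNAG, the N-box that HES proteins bind. The 3 motifs do not overlap in any printed window.
Notch3, chr17:32166891-32167140, minus strand: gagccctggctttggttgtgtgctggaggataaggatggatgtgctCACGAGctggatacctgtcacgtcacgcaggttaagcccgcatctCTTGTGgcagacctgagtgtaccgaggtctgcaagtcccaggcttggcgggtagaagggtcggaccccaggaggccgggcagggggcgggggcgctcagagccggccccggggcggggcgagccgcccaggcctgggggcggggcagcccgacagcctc
Dll1, chr17:15376933-15377182, minus strand: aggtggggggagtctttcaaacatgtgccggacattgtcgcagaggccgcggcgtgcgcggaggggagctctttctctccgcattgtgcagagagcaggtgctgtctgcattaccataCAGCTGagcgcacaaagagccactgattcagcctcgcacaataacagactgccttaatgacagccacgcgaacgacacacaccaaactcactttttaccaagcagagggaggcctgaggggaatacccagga
Gfi1, chr5:107725806-107726055, minus strand: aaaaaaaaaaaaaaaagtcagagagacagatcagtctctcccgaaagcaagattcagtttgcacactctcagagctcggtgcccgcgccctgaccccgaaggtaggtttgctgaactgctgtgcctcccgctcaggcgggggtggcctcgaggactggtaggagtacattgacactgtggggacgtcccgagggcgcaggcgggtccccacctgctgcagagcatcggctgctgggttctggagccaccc

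Promoters were found for 9 of the 10 members, with 11 starts in all, and Hes1 had none in the table used. The Notch3 window held 2 N-box matches, with first bases 204 and 159 bases before the start. The Dll1 window held 1 E-box match, 132 bases before the start, and the Gfi1 window held no match to any of the 3 motifs. Among the other members, an E-box letter match lay before the start of Jag1, and an N-box match before the starts of Dll4, Notch1 and Notch2. The RBPJ core was in none of the 11 windows. Of all 32851 mouse promoter windows of the same length, 21.6% held the RBPJ core, 13% the E-box and 36.7% the N-box, so such matches are common letters and are given as a description of sequence.

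Between 60.6% and 64.6% of spots on each array were well above background in Cy5, no spot was saturated, and the main probes of all 10 members were above background in Cy5 on all 8 arrays. All 5 epithelial markers (Epcam, Cdh1, Krt8, Krt18, Krt19) were above background on both control arrays, and so were all matched markers of stem cells, Paneth cells, goblet cells, tuft cells and enterocytes. Of 10 matched markers of fibroblasts, endothelium and leukocytes, 4 were above background on both control arrays: Col1a2, Pdgfrb, Acta2 and Ptprc. The others, Col1a1, Col3a1, Pdgfra, Pecam1, Cdh5 and Kdr, were not. In such bulk RNA, fewer cells of a type and less RNA per cell cannot be told apart. Each comparison of 2 groups set 2 arrays against 2. The spread behind the p-values was that between the 2 lines within a group, pooled over all 4 groups and moderated over all genes. Arrays were not paired by line in the main fit, and organoid line as a block was an alternative setting. Each line lay on its own slide, so line and slide cannot be told apart, and each treatment had the same position on both slides, so treatment and position cannot be told apart either.

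**Figure D1:**
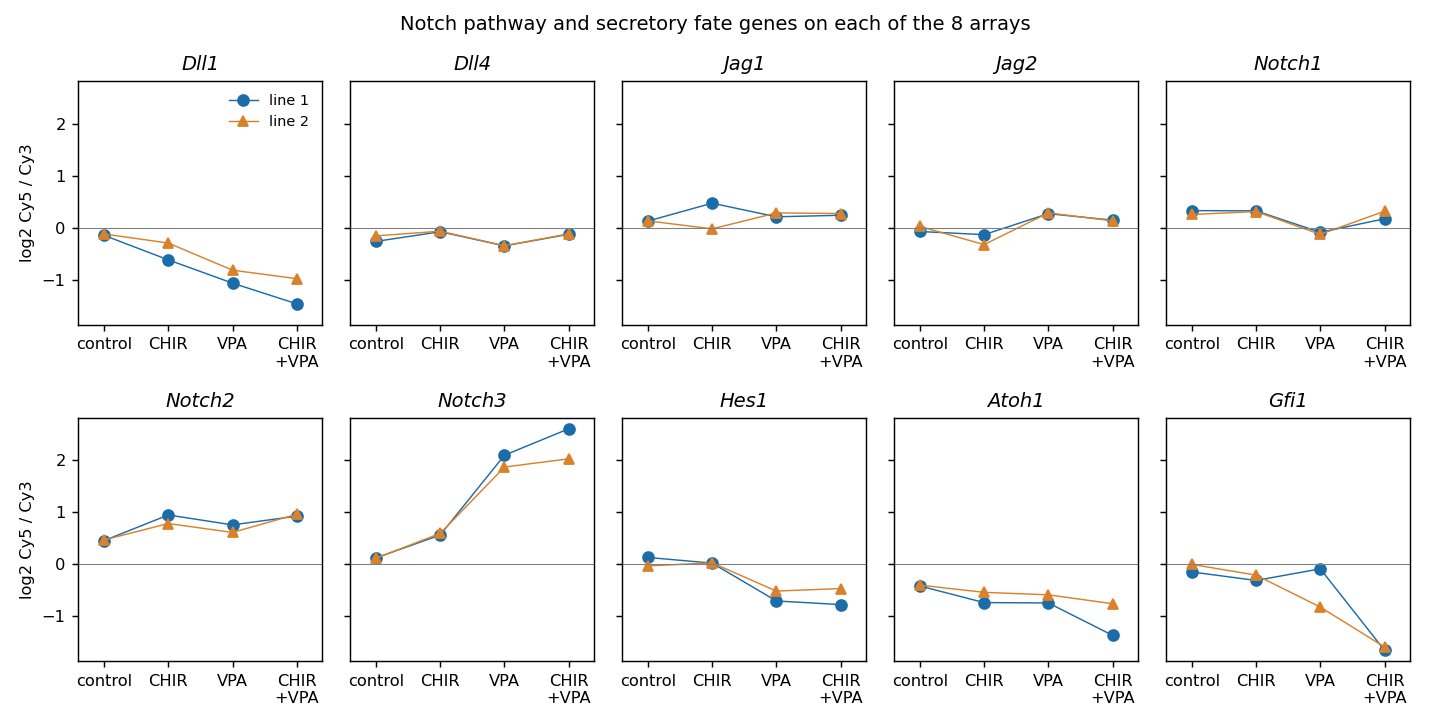
Log2 ratio of Cy5 (sample) to Cy3 (control RNA of the same line) of the brightest probe of each gene, for control, CHIR99021, VPA and the combination. Circles are line 1 and triangles line 2, joined within a line; Notch3 lies at 1.87 or higher in all VPA and combination arrays, and Gfi1 at -1.59 or lower in both combination arrays.

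CHIR99021 alone moved no member past the threshold, whereas VPA raised Notch3 and lowered Hes1, Dll1 and Notch1, and the combination raised Notch3 and Notch2 and lowered Gfi1, Dll1 and Hes1. Tests were made with limma over all genes with Benjamini-Hochberg adjustment, and a gene passed at an adjusted p under 0.05. With CHIR99021, 0 of 10 members passed and 2 had an unadjusted p under 0.05, where 1.06% of all genes passed and 12.8% had an unadjusted p under 0.05. With VPA, 1 of 10 members rose and 3 fell, where 10.7% of all genes passed (6.54% rose and 4.2% fell); 5 members had an unadjusted p under 0.05, as had 25.9% of all genes. Of all genes that passed with VPA, 60.9% rose, a share that became 76.8% when arrays were centred on their median in place of loess. With the combination, 2 of 10 members rose and 3 fell, where 15.5% of all genes passed (8.42% rose and 7.1% fell); 6 members had an unadjusted p under 0.05, as had 29.7% of all genes. Rises made up 54.2% of the genes that passed with the combination, or 64.8% with median centring. The median size of the difference from control, sign aside, was 0.57 on the log2 scale over the 10 members with the combination and 0.19 over all genes. The 3 comparisons share the control arrays.

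**Figure D2:**
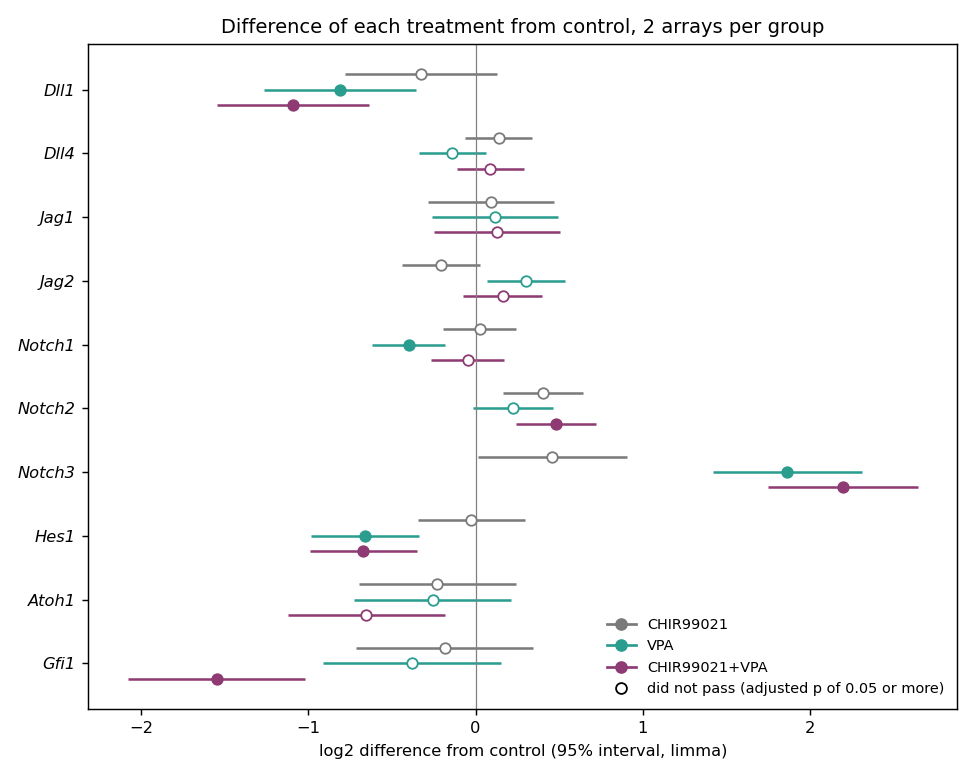
Difference of each treatment from control in log2 units for the 10 genes, with 95% intervals from limma; filled points passed and open points did not. Notch3 reached 1.87 with VPA and 2.20 with the combination, and Gfi1 reached -1.55 with the combination.

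Among the receptors, Notch3 was the member that moved furthest. Its log2 ratios in lines 1 and 2 were 0.12 and 0.12 for control, 0.57 and 0.60 with CHIR99021, 2.10 and 1.87 under VPA alone, and 2.61 and 2.03 when both compounds were given. All 4 arrays with VPA lay above all 4 without it, and CHIR99021 alone lay between. The rise over control was 1.87 ± 0.19 (SE, n = 2 per group) with VPA, a fold of 3.65 (limma, adjusted p = 0.00391), and 2.20 ± 0.19 with the combination, a fold of 4.59 (limma, adjusted p = 0.00142). The combination also exceeded CHIR99021 alone by 1.74 ± 0.19 (limma, adjusted p = 0.00488), a call lost with the software's ratio (1.88, adjusted p = 0.127). The combination and VPA alone differed by 0.33 ± 0.19, with a 95% interval of -0.11 to 0.78 (limma, adjusted p = 0.503). CHIR99021 alone differed from control by 0.46 ± 0.19 and did not pass (limma, adjusted p = 0.373).

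The Notch3 spots were dim where the gene was low. Their background-subtracted Cy5 brightness was 38.5 on the control array of line 1 and 252.5 on that of line 2, against 942 and 1387.5 with the combination. The Cy3 signal, which is always control RNA, was not well above background on the control and CHIR99021 arrays of line 1. The rise with the combination passed in all 19 alternative settings, with differences from 1.91 to 2.94. The rise with VPA passed in 16 of 19: leaving out control line 1 gave 1.87 with an adjusted p of 0.0613, leaving out control line 2 gave 1.86 with 0.0536 (both limma), and the software's own ratio gave 2.76 with 0.0503.

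Notch1, the receptor best known for keeping crypt progenitors undifferentiated, moved less. Its ratios were 0.33 and 0.25 in controls of lines 1 and 2, 0.32 and 0.31 with CHIR99021, -0.09 and -0.13 under VPA alone, and 0.17 and 0.32 when both compounds were given. Both VPA arrays lay below the other 6 arrays. The difference of VPA from control was -0.40 ± 0.09 (limma, adjusted p = 0.0395), and that of the combination was -0.05 ± 0.09 (95% interval -0.27 to 0.17, limma, adjusted p = 0.786). The combination lay 0.35 ± 0.09 above VPA alone, which did not pass (limma, adjusted p = 0.156). The fall with VPA was lost when any single control, CHIR99021 or VPA array was left out (differences -0.44 to -0.36, limma adjusted p from 0.0803 to 0.254). It was also lost with normexp fitted on all spots (limma, adjusted p = 0.107), median centring (0.141) and only the compared groups (0.0734). The VPA ratio tested against 0 was -0.11 (limma, adjusted p = 0.312). Both control ratios lay above 0, so that test does not measure the fall from control. With the software's ratio the difference was -0.92 (limma, adjusted p = 0.0307).

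Notch2, the second receptor of crypt progenitors, gave ratios of 0.46 and 0.47 in controls, 0.95 and 0.79 with CHIR99021, 0.76 and 0.61 under VPA alone, and 0.93 and 0.96 when both compounds were given. Both control arrays were the lowest and both VPA arrays came next, while CHIR99021 and the combination overlapped. The combination exceeded control by 0.48 ± 0.10 (limma, adjusted p = 0.0221), CHIR99021 by 0.40 ± 0.10 (limma, adjusted p = 0.149) and VPA by 0.22 ± 0.10 (limma, adjusted p = 0.216). The rise rests on 1 probe: a second probe above background on all 8 arrays differed from control by 0.11 with the combination, 0.12 with VPA and 0.02 with CHIR99021, and the remaining probe was above background on none. With the mean of the gene's probes the combination's difference was 0.17 and did not pass (limma, adjusted p = 0.29), nor did it pass in 4 of the 8 settings that leave out an array (0.46 to 0.50, limma adjusted p from 0.0616 to 0.149).

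Of the ligands, only Dll1, carried mainly by early secretory cells, passed in a comparison with control. Its ratios were -0.15 and -0.12 in controls of lines 1 and 2, -0.62 and -0.30 with CHIR99021, -1.07 and -0.82 under VPA alone, and -1.47 and -0.98 when both compounds were given. In both lines the order was the same, control highest and the combination lowest, and the VPA and combination arrays together lay below all control and CHIR99021 arrays. The difference from control was -0.81 ± 0.19 with VPA (limma, adjusted p = 0.0432), -1.09 ± 0.19 with the combination, 2.13-fold lower (limma, adjusted p = 0.0124), and -0.32 ± 0.19 with CHIR99021 (limma, adjusted p = 0.564). The Dll1 probe was printed as 10 spots on each array, and the SD of the log2 ratio over those spots was 0.026 to 0.065, below the difference between lines in every treated group.

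The combination lay 0.28 ± 0.19 below VPA, its neighbour in that order, and did not pass (limma, adjusted p = 0.596). It lay 0.77 ± 0.19 below CHIR99021, also short of the threshold (limma, adjusted p = 0.0532). That difference passed with organoid line as a block (limma, adjusted p = 0.00955), with normexp fitted on all spots (adjusted p = 0.0199), without background subtraction (-0.76, adjusted p = 0.0492) and without the combination array of line 2 (-1.01, adjusted p = 0.0265). The fall with the combination was lost without either control array (-1.10 and -1.08, limma adjusted p = 0.0949 and 0.0957) and with median centring (-1.07, adjusted p = 0.0529). The fall with VPA was lost with median centring (limma, adjusted p = 0.149), the software's ratio (0.0839), normexp without an offset (0.072), a variance trend (0.0565) and without any single control, CHIR99021 or VPA array (-0.93 to -0.68, limma adjusted p from 0.0638 to 0.224).

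Dll4, the second Delta-like ligand of secretory cells, stayed within a narrow band. Its ratios were -0.26 and -0.16 in controls, -0.08 and -0.07 with CHIR99021, -0.35 and -0.35 under VPA alone, and -0.13 and -0.12 when both compounds were given. VPA arrays were the lowest and CHIR99021 arrays the highest in both lines. No difference passed: the combination differed from control by 0.09 ± 0.08 (95% interval -0.11 to 0.29, limma, adjusted p = 0.554) and VPA by -0.14 ± 0.08 (95% interval -0.34 to 0.06, limma, adjusted p = 0.362).

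The Jagged ligands Jag1 and Jag2 did not pass against control under any treatment. Jag2 ratios were -0.07 and 0.02 in controls, -0.13 and -0.33 with CHIR99021, 0.27 and 0.28 under VPA alone, and 0.14 and 0.13 when both compounds were given. All 4 arrays with VPA lay above the 4 without, by 0.30 ± 0.10 for VPA against control (limma, adjusted p = 0.107) and 0.37 ± 0.10 for the combination against CHIR99021 (limma, adjusted p = 0.0658, or 0.0477 with organoid line as a block). Jag1 ratios lay between -0.02 and 0.47 on the 8 arrays, and both of these ends were CHIR99021 arrays, line 2 and line 1. Its 95% interval for the combination against control was -0.25 to 0.50 (limma). A second Jag1 probe was above background on no array.

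Hes1, the repressor that Notch induces and that holds Atoh1 down, fell wherever VPA was present. Its ratios were 0.13 and -0.03 in controls of lines 1 and 2, 0.02 and 0.03 with CHIR99021, -0.70 and -0.51 under VPA alone, and -0.77 and -0.47 when both compounds were given. The 4 arrays with VPA lay below the 4 without, with no overlap. The difference from control was -0.66 ± 0.13 with VPA (limma, adjusted p = 0.0286), 1.58-fold lower, and -0.67 ± 0.13 with the combination (limma, adjusted p = 0.0198). The combination also lay 0.65 ± 0.13 below CHIR99021 (limma, adjusted p = 0.0321). CHIR99021 against control was -0.03 ± 0.13 (95% interval -0.35 to 0.30, limma), and the combination against VPA was -0.01 ± 0.13 (95% interval -0.33 to 0.31, limma).

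The Hes1 calls were close to the threshold. Median centring ended all 3: adjusted p was 0.101 for VPA, 0.0928 for the combination and 0.157 for the combination against CHIR99021 (limma, differences -0.69, -0.64 and -0.58). With VPA the fall was also lost with the software's ratio (limma, adjusted p = 0.0725), with normexp without an offset (0.05001) and when any single control, CHIR99021 or VPA array was left out (differences -0.76 to -0.57, limma adjusted p from 0.0565 to 0.205). With the combination it was lost with only the compared groups (limma, adjusted p = 0.054), and without either control array or the combination array of line 1 (-0.75 to -0.52, limma adjusted p from 0.0739 to 0.153). Against CHIR99021 it was lost with only the compared groups (limma, adjusted p = 0.108), with the software's ratio (0.0518), with normexp without an offset (0.0531), and without either control array, either CHIR99021 array or the combination array of line 1 (-0.65 to -0.49, limma adjusted p from 0.0758 to 0.157).

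Atoh1, the factor that commits progenitors to the secretory lineages and a gene that HES1 represses, did not rise on the arrays where Hes1 was low. Its ratios were -0.42 and -0.40 in controls of lines 1 and 2, -0.74 and -0.54 with CHIR99021, -0.74 and -0.59 under VPA alone, and -1.37 and -0.76 when both compounds were given. Both control arrays were the highest and both combination arrays the lowest, with CHIR99021 and VPA overlapping. The differences from control were -0.23 ± 0.20 with CHIR99021 (limma, adjusted p = 0.732), -0.26 ± 0.20 with VPA (limma, adjusted p = 0.478) and -0.65 ± 0.20 with the combination (limma, adjusted p = 0.0706). The upper ends of the 95% intervals were 0.24, 0.21 and -0.18.

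The result for Atoh1 with the combination changed side with the settings. It passed with organoid line as a block (limma, adjusted p = 0.0204), without the combination array of line 2 (-0.96, limma, adjusted p = 0.0113), with the software's ratio (-1.42, adjusted p = 0.0235) and with normexp without an offset (-1.11, adjusted p = 0.03). Atoh1 was dim, with a net Cy5 brightness of 185 and 118 on the control arrays and 67.5 and 62 with the combination.

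Gfi1, a repressor that Atoh1 switches on and that marks the goblet and Paneth branch, fell with the combination. Its ratios were -0.15 and -0.00024 in controls of lines 1 and 2, -0.31 and -0.21 with CHIR99021, -0.09 and -0.82 under VPA alone, and -1.66 and -1.59 when both compounds were given. Both combination arrays lay far below the other 6, while the VPA arrays disagreed, line 1 near control and line 2 well below it. The combination differed from control by -1.55 ± 0.22, 2.93-fold lower (limma, adjusted p = 0.00669), and from CHIR99021 by -1.36 ± 0.22 (limma, adjusted p = 0.0156). Neither compound alone passed: CHIR99021 gave -0.19 ± 0.22 (95% interval -0.72 to 0.35, limma, adjusted p = 0.828) and VPA -0.38 ± 0.22 (95% interval -0.91 to 0.15, limma, adjusted p = 0.345). Without the VPA array of line 1, the VPA difference was -0.75 and passed (limma, adjusted p = 0.0288).

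Without either control array the fall of Gfi1 with the combination kept its size (-1.62 and -1.48) and did not pass (limma, adjusted p = 0.0578 and 0.0682). With the software's ratio it was -2.33, more than 1.5 times larger. Against CHIR99021, the fall did not pass without either CHIR99021 array or the combination array of line 1 (-1.42 to -1.31, limma adjusted p from 0.065 to 0.104).

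**Figure D3:**
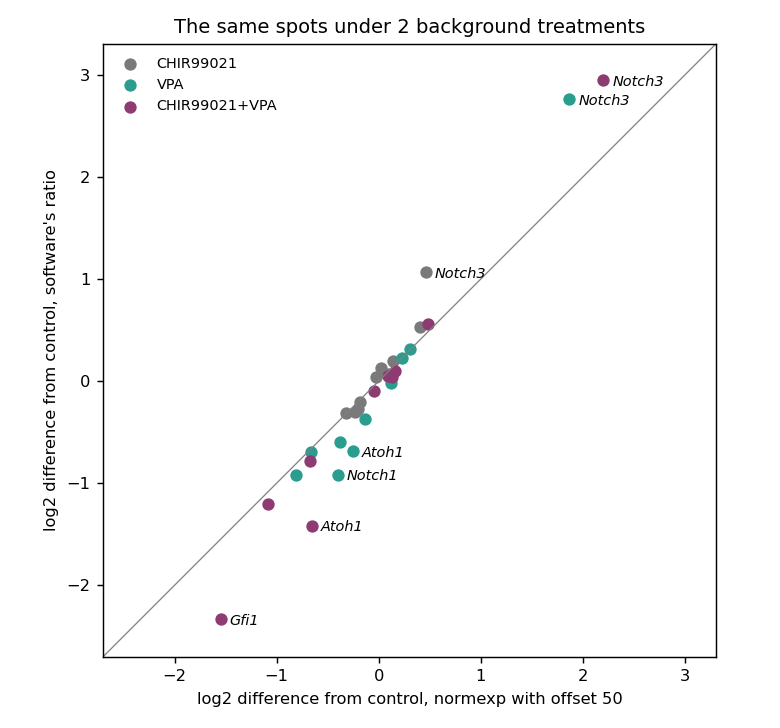
Difference from control in log2 units of the 10 genes with normexp background correction and an offset of 50 (horizontal) and with the scanner software's own ratio (vertical); the line marks equality. Genes named on the plot differ by more than 0.35 between the treatments of background. Notch3 with VPA lies at 1.87 and 2.76, Gfi1 with the combination at -1.55 and -2.33.

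The combination was next set against each compound alone. Against CHIR99021, Notch3 rose and Gfi1 and Hes1 fell, 3 of 10 members, where 9.96% of all genes passed (6.15% rose and 3.81% fell) and 25% had an unadjusted p under 0.05, as had 5 members. Rises made up 61.8% of the genes that passed, or 78.5% with median centring. With organoid line as a block, 5 members passed, Dll1 and Jag2 joining them, where 3426 of all 19271 genes passed. Against VPA, 0 of 10 members passed by limma and 4 had an unadjusted p under 0.05 (Gfi1, Notch1, Dll4 and Notch2), where 1.11% of all genes passed (0.0882% rose and 1.02% fell) and 14% had an unadjusted p under 0.05. Gfi1 lay 1.17 ± 0.22 below VPA alone (limma, adjusted p = 0.0735). It passed with organoid line as a block (limma, adjusted p = 0.0458) and, at -1.54, without the VPA array of line 2 (limma, adjusted p = 0.0365).

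Whether the joint effect departed from the sum of the single effects on the log2 scale was tested as an interaction. By limma, 0 of 10 members and 0 of all genes passed (0%), and 2 members had an unadjusted p under 0.05, where 2.62% of all genes did. These were Gfi1, at -0.98 ± 0.31 (limma, unadjusted p = 0.0178, adjusted p = 1), and Notch1, at 0.33 ± 0.13 (limma, unadjusted p = 0.0403, adjusted p = 1). Both lines had the same sign for both genes, -1.41 and -0.56 for Gfi1 and 0.27 and 0.39 for Notch1. For Notch3 the interaction was -0.13 ± 0.26 and for Hes1 0.01 ± 0.19 (limma).

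Around the members, 45 other genes of the pathway were listed (processing enzymes, glycosyltransferases, endocytic regulators, cofactors and targets); 41 had a probe and 37 were tested. With CHIR99021, 0 rose and 0 fell by limma. With VPA, 3 of 37 rose and 0 fell, where 6.54% of all genes rose and 4.2% fell, and the list's median difference was -0.09 against 0.00 over all genes. With the combination, 6 of 37 rose and 2 fell, where 8.42% of all genes rose and 7.1% fell, with a median of -0.07 against 0.01. A few single genes moved, and the list as a whole lay near the median of all genes.

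Aph1b, a subunit of the gamma-secretase complex that cleaves Notch receptors, moved furthest in this list. Its ratios were 0.03 and -0.02 in controls, 0.60 and 0.26 with CHIR99021, 2.51 and 2.27 under VPA alone, and 2.38 and 2.28 when both compounds were given. The arrays with VPA stood clear of the others, at 2.39 ± 0.14 over control with VPA (limma, adjusted p = 0.000825) and 2.32 ± 0.14 with the combination (limma, adjusted p = 0.000532). The other 2 Aph1b probes gave 1.84 and 1.89 for VPA, and 2.20 and 2.15 for the combination, over control. Dtx3, of the Deltex family of ubiquitin ligases, rose by 1.11 ± 0.12 with VPA (limma, adjusted p = 0.00426) and 1.34 ± 0.12 with the combination (limma, adjusted p = 0.00152), with 0.39 and 0.67 on its second probe. Without control line 1, Dtx3 with VPA did not pass (0.98, limma, adjusted p = 0.0558).

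Dtx1, another Deltex gene, rose by 0.59 ± 0.12 with VPA (limma, adjusted p = 0.0291), a call lost without either control, either CHIR99021 array or the VPA array of line 2 (0.45 to 0.65, limma adjusted p from 0.0573 to 0.207). Nrarp, a Notch target that feeds back on the receptor's intracellular domain, fell by 0.61 ± 0.10 with the combination (limma, adjusted p = 0.0101). Hey1, a Hes-related target, was not well above background on either control array and was above it on both combination arrays. Its log2 ratio was 0.69 ± 0.13 higher with the combination than in control (limma, adjusted p = 0.0181), a difference measured against a control level not well above background. Hey1 entered the test only through the VPA and combination groups, where it was above background on both arrays. The filter thus favoured a rise, so the p-value and its place among the genes counted as risen do not support one. Nrarp did not pass without control line 1 or 2 (-0.56 and -0.66, limma adjusted p = 0.0997 and 0.0689), and Hey1 did not pass without either of these or the combination array of line 1 (0.54 to 0.76, limma adjusted p from 0.0682 to 0.137). The other calls with the combination, named after their values were seen, were rises of Adam17 (0.70), Mib2 (0.65) and Fbxw7 (0.55) and a fall of Maml1 (-0.54), each lost in 4 to 6 of the 8 settings that leave out an array. With organoid line as a block, 8 rose and 6 fell with the combination, where 2556 of all 19271 genes rose and 2267 fell. With VPA, 6 rose and 3 fell under that setting, where 2090 of all genes rose and 1637 fell.

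**Figure D4:**
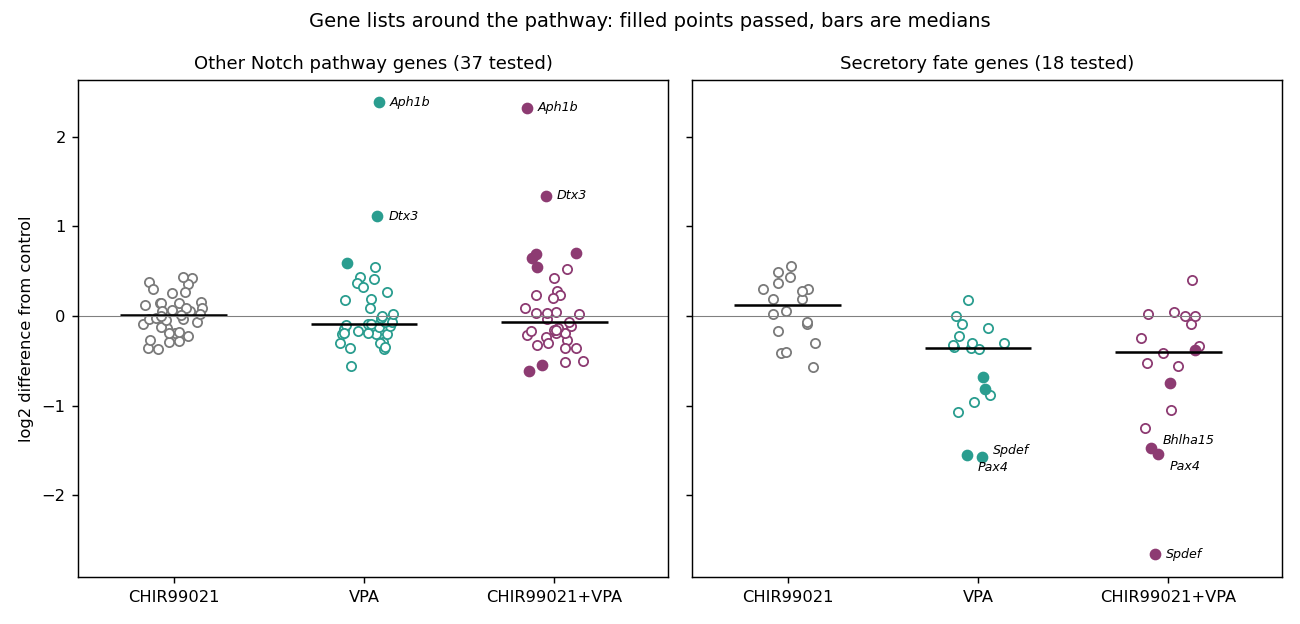
Difference from control in log2 units for the tested genes of the Notch list (left) and the secretory list (right) under each treatment; filled points passed, open points did not, and the bar is the list's median. The secretory list's median is -0.35 with VPA and -0.40 with the combination, and its Spdef reaches -2.66.

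The secretory side was read from 22 transcription factors and early secretory genes, all with a probe, of which 18 were tested. With CHIR99021, 0 rose and 0 fell by limma, and the median difference was 0.12. With VPA, 0 of 18 rose and 4 fell, where 6.54% of all genes rose and 4.2% fell; 17 of 18 differences were below 0, and the median was -0.35 against 0.00 over all genes. With the combination, 0 of 18 rose and 5 fell, where 8.42% of all genes rose and 7.1% fell; 14 of 18 were below 0, and the median was -0.40 against 0.01. With organoid line as a block, 7 fell with VPA and 9 with the combination, where 1637 and 2267 of all 19271 genes fell.

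Spdef, the factor that matures goblet and Paneth cells downstream of Atoh1, fell most. Its ratios were -0.09 and -0.02 in controls of lines 1 and 2, -0.50 and -0.41 with CHIR99021, -1.32 and -1.95 under VPA alone, and -2.60 and -2.83 when both compounds were given. The 4 groups did not overlap, in the order control, CHIR99021, VPA and combination. Against control it fell by 1.58 ± 0.20 with VPA (limma, adjusted p = 0.00734) and by 2.66 ± 0.20 with the combination (limma, adjusted p = 0.00107). The combination's fall passed in all 19 alternative settings, and VPA's did not pass without control line 1 or 2 (-1.61 and -1.54, limma adjusted p = 0.08 and 0.0855).

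The enteroendocrine factors Pax4 and Rfx6 also fell. Pax4 fell by 1.56 ± 0.27 with VPA (limma, adjusted p = 0.0196) and by 1.54 ± 0.27 with the combination (limma, adjusted p = 0.0132). Rfx6 fell by 0.82 ± 0.15 (limma, adjusted p = 0.0218) and 0.75 ± 0.15 (limma, adjusted p = 0.0197). Each was not well above background on an array of line 1 with VPA present: Pax4 on the combination array, Rfx6 on both.

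Insm1, a repressor that drives endocrine differentiation, fell with VPA (-0.69 ± 0.16, limma, adjusted p = 0.0419), and Bhlha15, which equips secretory cells for high output, fell with the combination (-1.47 ± 0.28, limma, adjusted p = 0.0171). A second Bhlha15 probe above background on 8 arrays gave -0.26. The last call with the combination, named after its value was seen, was Tox3 (-0.38). Except for Spdef, each of these calls with the combination was lost without control line 1 or 2, and those with VPA likewise (limma adjusted p from 0.0666 to 0.245 over all array omissions that ended one of the VPA calls of Pax4, Rfx6 and Insm1).

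Markers of the mature cell types are given beside these factors. Of all genes, 0.95% fell and 0.109% rose with CHIR99021. With VPA 4.2% fell and 6.54% rose, and with the combination 7.1% fell and 8.42% rose. With CHIR99021, 0 goblet and 0 Paneth markers passed by limma, with medians of -0.89 and 0.66. All 6 tested goblet markers fell with the combination (median -2.96, Tff3 -1.97, Agr2 -2.79, Clca1 -5.77) and 4 of 6 with VPA (median -1.19). Their net Cy5 brightness was summed on each array, without scaling between arrays. The goblet sum was 217012 to 265590 on the control arrays and 131186 to 161115 with CHIR99021. With VPA it was 88511.5 to 155630, and with the combination 36634.5 to 53827.5. Of 5 tested Paneth markers, 2 fell with the combination (Defa22 -2.66 and Ang4 -1.69) and 1 with VPA, and 3 of 5 did not pass with the combination. Their sums in lines 1 and 2 were 379189 and 127766 in controls, 388407 and 189262 with CHIR99021, 274740 and 56556.5 under VPA alone, and 111349 and 67100 when both compounds were given.

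Of 6 tested enteroendocrine markers, 3 fell with VPA and 3 with the combination (Chgb -3.08 and -4.45). The lines disagreed for Cck, with ratios in lines 1 and 2 of 0.73 and 0.56 in controls and -4.09 and 0.42 with VPA. Medians of the enteroendocrine markers with VPA were -2.86 in line 1 and -1.67 in line 2. Their sums over 8 matched markers were 227385 on the control array of line 1 and 14372.4 on that of line 2, and 12077.4 and 2552 with the combination. Of 5 tuft markers, 1 fell with VPA and 2 with the combination. The tuft medians with VPA were -1.40 in line 1 and -0.36 in line 2. Of 8 enterocyte markers, 1 fell under CHIR99021, 1 under VPA and 4 under both compounds (Apoa1 -2.68, -1.87 and -3.79). With VPA, 3 of the 8 enterocyte differences were above 0 and 5 below, with a median of -0.23. Fabp1 lay 2.16 ± 0.60 above control and did not pass (limma, adjusted p = 0.0711). Lct moved further, downward: its ratios in lines 1 and 2 were 0.05 and 0.03 in controls and -2.41 and -2.47 with VPA. Of 5 stem cell markers, 1 rose with the combination, Rnf43 by 0.85. Of 5 epithelial markers, 1 fell with CHIR99021 (Krt8 -0.75), 2 with VPA (Krt8 -0.84 and Krt18 -0.64) and 3 with the combination (Krt8 -1.01, Krt18 -0.71 and Krt19 -0.78), where Cdh1 rose by 0.51. Epcam differed from control by 0.07, 0.02 and 0.06 in that order and did not pass. The part of these cell types in the changes of Gfi1, Dll1, Atoh1 and Spdef was not tested.

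Notch3 is also known from pericytes and smooth muscle, so markers outside the epithelium stand beside it. The net Cy5 brightness of the 10 matched non-epithelial markers was summed on each array. In line 1 the sum was 9869.15 in control, 11006.8 under CHIR99021, 10106.9 under VPA alone and 12885 when both compounds were given. In line 2 it was 18134.4, 16305, 12098.3 and 15429.4 in the same order. The treated sums of these markers thus lay above control in line 1 and below it in line 2. The sums were not scaled between arrays and take in markers not above background, so they do not give a level of such cells. Of 6 tested, 1 passed: Col1a1, a fibroblast collagen, which was not well above background on any control or CHIR99021 array. Its log2 ratio was higher by 0.79 ± 0.14 with VPA (limma, adjusted p = 0.0214) and by 1.02 ± 0.14 with the combination (limma, adjusted p = 0.00641). Col1a1 entered the test only through the VPA and combination groups, where it was above background. The filter thus favoured a rise, and these p-values do not support one. The pericyte and smooth muscle genes Pdgfrb and Acta2 differed from control by -0.34 and -0.14 with VPA and by -0.61 and 0.22 with the combination, and none of these passed. Pdgfra, also tested, was above background only on the VPA array of line 2 and both combination arrays. Its ratios in lines 1 and 2 were -0.02 and 0.05 in controls. They were 0.30 and 0.64 under VPA alone, and 0.46 and 0.56 with both compounds, and Pdgfra did not pass. Over the 6 tested, 2 differences were above 0 and 4 below with VPA, and 3 above and 3 below with the combination. The part of such cells in the rise of Notch3 was not tested.

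The genes whose log2 ratios tracked each member most closely over the 8 arrays are a description, because all 8 share the treatments and the reference. For Notch3 they were Zfp593 (Pearson r = 0.996), Rnf7 (0.99) and Lrp11 (0.99), and Lrp11 itself lay 2.66 above control with VPA. For Gfi1 they were Ing2 (0.98) and the goblet-associated genes Tff3 (0.97) and Guca2a (0.96). Dll1 was tracked by Ube2r2 (0.997), Clca3a2 (0.996) and Dffb (0.99), Hes1 by Tmem42 (0.99), Tusc1 (0.99) and Dus3l (0.99), and Atoh1 by Osgep (0.99), Ugt2a3 (0.98) and Zfp212 (0.98). For Notch1 they were Axin1 (0.99), Per2 (0.97) and Pkdcc (0.97), and for Notch2 Filip1l (0.99), Vegfb (0.97) and Tmx2 (0.97). Dll4 was tracked by Atp6ap1 (0.98) and Thoc3 (0.98), and Jag2 by Dpf3 (0.99), Abcb10 (0.98) and Mdh1 (0.98). The closest genes to Jag1 were further off, Rac1 (0.90), Map1a (0.90) and Olfr113 (0.88).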

How the data were processed

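Signal intensities per spot were deposited by the authors as scanner output on 8 two-colour arrays of 45018 spots; the headers name version 10.5.1.1 of Agilent's Feature Extraction software. Median spot and background intensities were background-corrected with normexp (offset 50, fitted without outlier-marked spots), normalised by loess within arrays and averaged per probe in limma 3.58.1 (R 4.3.3). Spots marked as outliers were left out, which removed 63 genes. Probes were named through RefSeq (GRCm38.p6), and 27479 of 41174 matched. A gene was tested on its brightest probe where Cy5 was well above background on both arrays of at least 1 group. The deposited series table held the software's ratio on the log2 scale within 5e-10, sample over control, with column medians of -0.028 to 0.036; the deposited log10 ratio of each scanner file was used only as an alternative. limma fitted 4 groups of 2 arrays (4 residual and 2.68 prior degrees of freedom), with Benjamini-Hochberg adjustment over 19271 genes. The fit was also run on simulated arrays drawn independently of each other, so that run does not cover the correlation of same-line arrays. Replicate numbers are organoid lines per the labels. Deviations of same-line arrays correlated at 0.121 to 0.753 over the 6 pairs of groups. Such arrays also share a slide and the control RNA in Cy3, so the correlation cannot tell whether the line pairs the samples. The number of arrays limits the precision.

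The members, lists and tests were chosen with earlier results of these data known. All 10 members are described, with the 3 most correlated named genes for each (1 gene is not reported here) and up to 4 genes per list and comparison by smallest adjusted p. Alternatives were other background corrections, median centring, the software's ratio, only the compared groups, organoid line as a replicate block, a variance trend, no filter, the mean of a gene's probes, ratios against 0 and leaving out each array; normexp without an offset was chosen after seeing the data.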

Additional observations from a re-analysis of the deposited data

Results flagged for a closer look

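In 5 comparisons with control the 2 organoid lines moved a member in opposite directions, with 1 array per line and group, and the difference between lines was not tested. With VPA, Gfi1 differed from control by 0.061 in line 1 and -0.82 in line 2. With CHIR99021, Jag1 differed by 0.34 in line 1 and -0.15 in line 2, Hes1 by -0.11 and 0.059, and Notch1 by -0.0053 and 0.057. With the combination, Notch1 differed by -0.16 in line 1 and 0.063 in line 2. None of these 5 comparisons passed in limma.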

How the results depend on the processing

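Members' calls were few per comparison and many sat near the threshold. No call of a member changed sign in any setting run. The count for VPA against control, 4, became 1 with median centring, 1 with the software's ratio, 2 with normexp without an offset and 7 with ratios tested against 0. For the combination against control, 5 became 3 with median centring. For the combination against CHIR99021, 3 became 1 with the software's ratio and 1 without an offset. For CHIR99021 against control, 0 became 1 with only the compared groups and 2 with ratios against 0. The control arrays did not themselves lie at 0: their mean ratios were 0.46 for Notch2, 0.29 for Notch1 and -0.41 for Atoh1. Tests against 0 take in this offset, so their counts do not measure a difference from control. Leaving out each array gave 0 to 4 members for VPA, 1 to 5 for the combination against control, 1 to 5 for it against CHIR99021, 0 to 1 for it against VPA and 0 to 0 for CHIR99021. With organoid line as a replicate block, 5 members passed for the combination against CHIR99021, 1 against VPA and 6 against control, where Atoh1 joined; the block ended no member's call and left the counts for CHIR99021 (0) and VPA (4) as they were. Where a group was left with 1 array, that array was assumed to vary like the other groups. The cause of these changes was not tested.

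Counts over all genes moved more: CHIR99021 against control gave 204 genes, 552 with the block, 36 with the software's ratio, 77 without an offset, 85 with a variance trend, 1084 with only the compared groups, 2559 against 0, 0 with normexp fitted on all spots, 1 without control line 1, control line 2 or CHIR99021 line 2, and 15 without CHIR99021 line 1. VPA gave 2071, 3727 with the block, 1111 with median centring, 5480 against 0 and 120 or 125 without control line 1 or 2. The combination gave 2991, 4823 with the block, 6382 against 0 and 543 or 604 without control line 1 or 2. Leaving out each array gave 287 to 2041 genes for the combination against CHIR99021 (1920 with all arrays) and 7 to 171 against VPA (214 with all arrays). With the block and all arrays, 3426 genes passed against CHIR99021 and 610 against VPA. Dim spots limit Notch3, Notch1 and Atoh1, whose sizes depend on the background correction.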

Other observations

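The Cy3 channel carried control RNA of each line on 4 arrays and gave the members' untreated levels by line; line and slide coincide, so they cannot be told apart, and no test was made. The net Cy3 brightness of Notch3 was 25 to 35.5 in line 1, where 2 of the 4 arrays were not well above background, and 85.5 to 105.5 in line 2, so no difference is given. After scaling each array, Jag1 lay 0.56 and Dll1 0.34 higher in line 2 on the log2 scale. Atoh1 lay lower in line 2 by 0.48 and Gfi1 by 0.46, with SDs of 0.03 to 0.08 in each line.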
